A study of Danio rerio with 3 samples.

Results

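The vascular endothelial genes are a set of 35 zebrafish genes known from the inner lining of blood and lymphatic vessels. They were chosen by name, but with earlier results of these data known, and looked up among the 32057 genes measured in the adult kidney. All 35 were found, and 33 of them were assigned to 33 gene identifiers. Among these, *cldn5a* and *cldn5b* share 2 identifiers that the gene table does not tell apart, and both identifiers are counted. *efnb2a* and *aqp1a.1* were each listed under 2 identifiers that the gene table does not tell apart, and these 4 identifiers are described but not counted. The study sorted 3 populations from the kidney marrow, the blood-forming tissue of fish, by 2 fluorescent transgenes, *gata2a:GFP* and *runx1:mCherry*, and asked which of them holds hematopoietic stem cells (HSCs). The populations were *gata2a*+ *runx1*- cells, labelled as lymphoid-primed progenitors, *gata2a*+ *runx1*+ cells, labelled as HSCs, and *gata2a*- *runx1*+ cells, labelled as progenitors primed for the erythroid and/or myeloid lineages. All came from adult fish labelled wild type that carried both transgenes, and from the fraction of low side scatter, which leaves out granulocytes. The *gata2a:GFP* line also marks vascular endothelial cells, mCherry is under a mouse *Runx1* enhancer, and the sort used no endothelial marker. How many fish or cells went into a library is not given in the sources used here.

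Endothelial cells line the vessels and control what leaves the blood. They grow and survive under vascular endothelial growth factor (VEGF), which acts through the receptors encoded by *kdrl*, *kdr*, *flt1*, and *flt4*, and under angiopoietins, which act through the Tie receptors. Their identity is set by ETS and SoxF transcription factors, they are joined by VE-cadherin and claudins, and those of sinusoids and lymphatics carry scavenger receptors that take up waste molecules. HSCs arise from endothelium in the embryo, and several genes of the set, among them *erg*, *fli1a*, *pecam1a*, and *tek*, are also known from blood cells.

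Each population was sequenced as 1 library, and a difference between populations therefore rests on no replicate. The deposited RPM values, the reads of a gene scaled to the same total of reads in each library, gave back 8094670 reads on genes in *gata2a*+ *runx1*-, 8123636 in *gata2a*+ *runx1*+, and 8205803 in the *gata2a*- *runx1*+ library, so that depth was nearly equal. A gene with more than 3 reads was taken as detected, which is 0.371, 0.369, and 0.366 RPM in the *gata2a*+ *runx1*-, *gata2a*+ *runx1*+, and *gata2a*- *runx1*+ libraries, and 16501 genes passed in at least 1 library. Ranges in brackets after an RPM value are 95% Wilson intervals, and they and the floor cover the counting error of reads only. The cDNA was amplified without molecular identifiers, so that copies of the same molecule count as separate reads. The intervals and p-values therefore do not cover the sampling of RNA molecules before amplification. A gene was called different between 2 libraries when its fold was over 2 and its Benjamini-Hochberg adjusted p over all genes was under 0.05 in a two-sided Fisher's exact test, a comparison of libraries rather than of populations. Messenger RNA of *gata2a* itself was at 1354 RPM in *gata2a*+ *runx1*-, 344.4 RPM in *gata2a*+ *runx1*+, and 11.8 RPM in the *gata2a*- *runx1*+ library, in the order of the gates. In sorted cells measured in bulk, fewer endothelial cells and less RNA per endothelial cell cannot be told apart.

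Most of the set was read most in the *gata2a*+ *runx1*- library. Of the 33 assigned genes, 31 had more than 3 reads in a library, and 2 did not. The highest RPM of these 31 genes was in *gata2a*+ *runx1*- for 21, in *gata2a*+ *runx1*+ for 7, and in the *gata2a*- *runx1*+ library for 3. The same count was not made over all genes. In the comparison of *gata2a*+ *runx1*- with *gata2a*+ *runx1*+ cells, 17 of 29 tested genes (58.6%) were called higher and 3 (10.3%) lower, against 21.7% and 18.7% of all genes. In the comparison of *gata2a*+ *runx1*- with *gata2a*- *runx1*+ cells, 22 of 30 (73.3%) were called higher and 3 lower, against 26.7% and 18.5% of all genes. Between *gata2a*+ *runx1*+ and *gata2a*- *runx1*+ cells, 11 of 21 (52.4%) were called higher and 1 (4.76%) lower, against 20.8% and 11.8% of all genes. The share called higher was thus above that of all genes in each of the 3 comparisons. The shares called lower rest on 3, 3, and 1 genes, and no difference from all genes is read from them. With the 4 identifiers of *efnb2a* and *aqp1a.1* added, 5 genes were called lower in the first comparison, 5 in the second, and 2 in the third. Called over each of the other libraries were 17 of 31 genes in the *gata2a*+ *runx1*- library, against 15.7% of all genes, 3 in the *gata2a*+ *runx1*+ library, against 7.44%, and 1 in the *gata2a*- *runx1*+ library, against 6.08%. The median log2 ratio of RPM + 1 over the 31 genes was 1.30 for *gata2a*+ *runx1*- over *gata2a*+ *runx1*+ cells, 1.996 for *gata2a*+ *runx1*- over *gata2a*- *runx1*+ cells, and 0.56 for *gata2a*+ *runx1*+ over *gata2a*- *runx1*+ cells. The same medians over all 16501 genes lay between 0 and 0.05. A gene that passed the floor through 1 library alone had to differ, so that these counts and medians are a description.

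**Figure D1:**
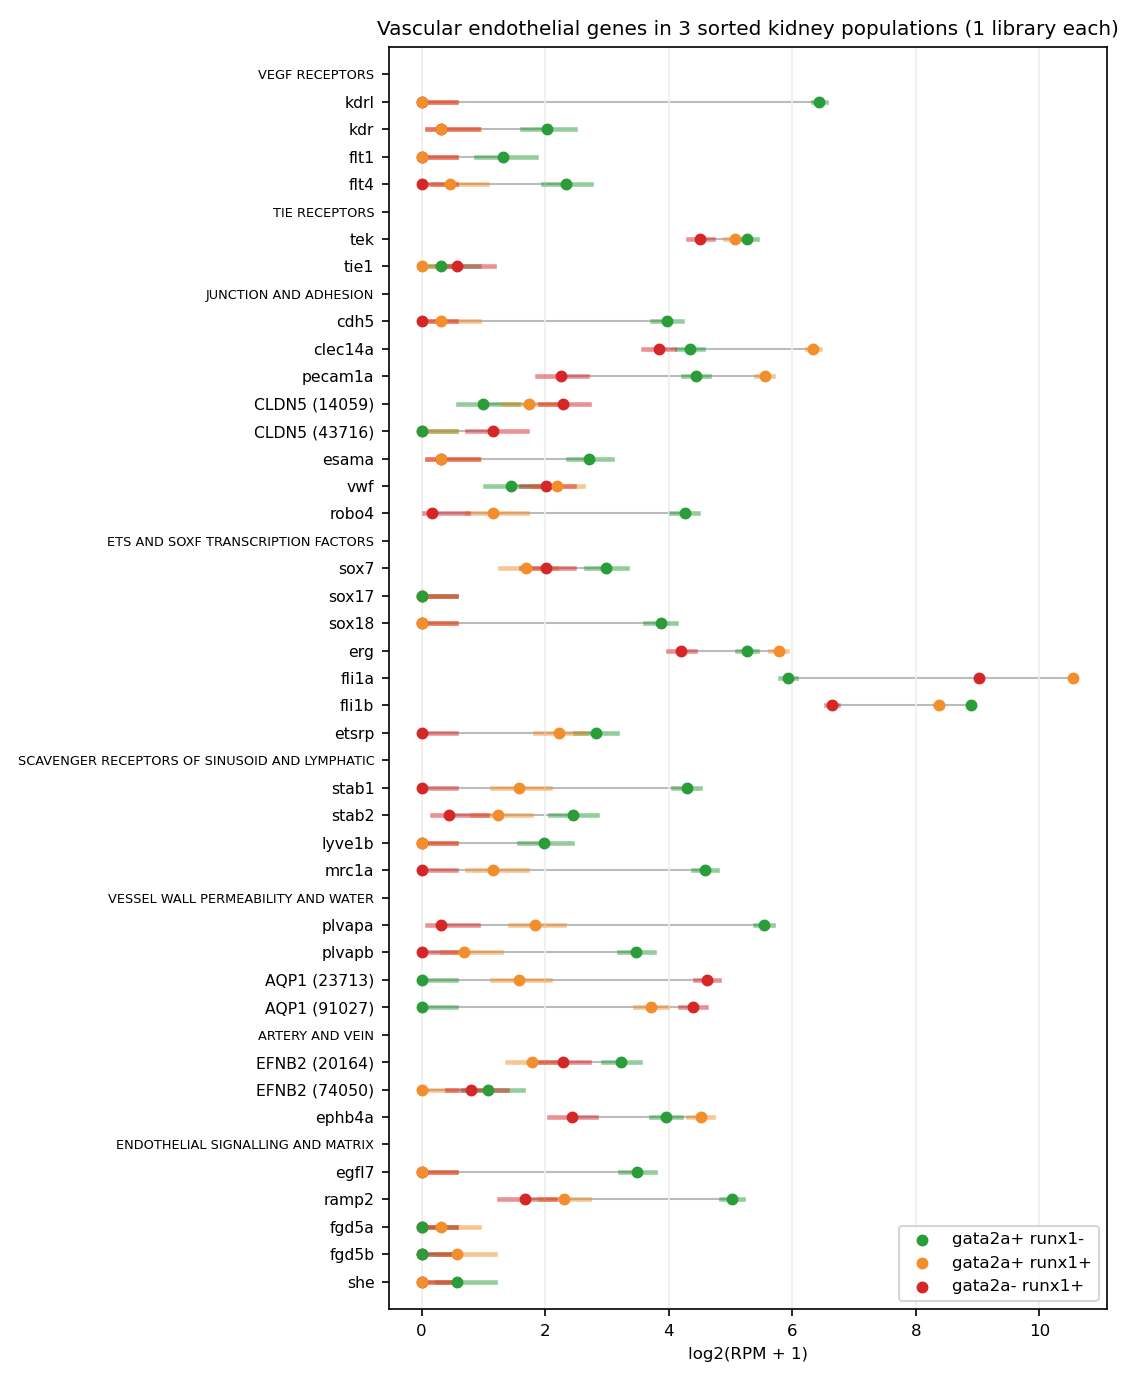
Level of each vascular endothelial gene in the 3 libraries, as log2(RPM + 1), grouped by role; points are single libraries and bars are 95% Wilson intervals, and genes listed under a shared human symbol carry the last digits of their identifier. The green points of *gata2a*+ *runx1*- cells lie to the right in the VEGF receptor, scavenger receptor, and *plvap* rows, while *clec14a*, *pecam1a*, and *fli1a* have their rightmost point in the *gata2a*+ *runx1*+ library.

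The 33 genes were grouped by where they were read. Over 3 reads in the *gata2a*+ *runx1*- library alone were 10 genes, *kdrl*, *kdr*, *flt1*, *flt4*, *cdh5*, *sox18*, *egfl7*, *lyve1b*, *esama*, and *she*, which is 32.3% of the 31 genes detected, against 9.79% of all genes. For 6 of the 10, *kdrl*, *flt1*, *sox18*, *egfl7*, *lyve1b*, and *she*, not a single read was counted in either *runx1*+ library, which held for 19.4% of the 31, against 5.39% of all genes. Detected in both *gata2a*+ libraries but not in the *gata2a*- *runx1*+ library were 7 genes, *plvapa*, *plvapb*, *stab1*, *stab2*, *etsrp*, *mrc1a*, and *robo4*. Detected in all 3 libraries were 11 genes, *tek*, *sox7*, *ramp2*, *clec14a*, *pecam1a*, *erg*, *fli1a*, *fli1b*, *ephb4a*, *vwf*, and 1 of the 2 claudin-5 genes. The other claudin-5 gene, *tie1*, and *fgd5b* passed the floor only in a *runx1*+ library, and *sox17* and *fgd5a* passed in none. For the groups beyond the *gata2a*+ *runx1*- library alone, the share over all genes was not counted, and they are a description. Some of these places rest on few reads. *flt4* had exactly 3 reads in *gata2a*+ *runx1*+, *she* had 4 reads in *gata2a*+ *runx1*-, and *plvapb* had 5 reads in the *gata2a*+ *runx1*+ library. *stab2* had exactly 3 reads in the *gata2a*- *runx1*+ library. *tie1* passed there with 4 reads, and *fgd5b* passed with 4 reads in the *gata2a*+ *runx1*+ library. The 10 genes detected in the *gata2a*+ *runx1*- library alone summed to 1148 reads there, of which *kdrl* gave 693 (60.4%). They had 9 reads in *gata2a*+ *runx1*+ and 4 reads in the *gata2a*- *runx1*+ library. The 10 were picked by these reads, so that the direction of this contrast was fixed. The sum over all 33 genes has another order, with 975.1 RPM in *gata2a*+ *runx1*-, 2081 RPM in *gata2a*+ *runx1*+, and 694.1 RPM in the *gata2a*- *runx1*+ library. It was carried by the *fli1* genes, and without *fli1a* and *fli1b* the sums were 438.8, 261.1, and 75.8 RPM in the *gata2a*+ *runx1*-, *gata2a*+ *runx1*+, and *gata2a*- *runx1*+ libraries.

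**Figure D2:**
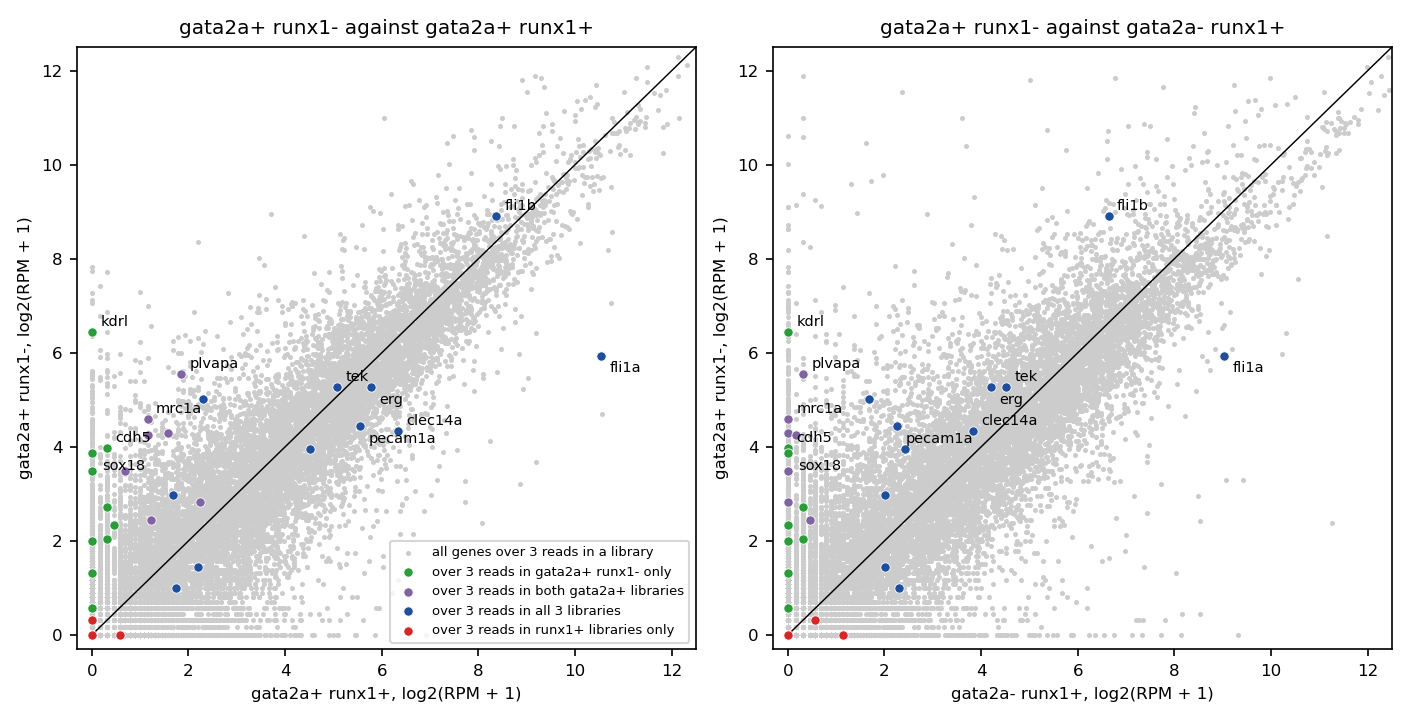
Level of every gene in *gata2a*+ *runx1*- (vertical axis, log2(RPM + 1)) against its level in *gata2a*+ *runx1*+ (left) and in the *gata2a*- *runx1*+ library (right); grey points are the 16501 genes over 3 reads in a library, coloured points are the 31 vascular endothelial genes among them, and the line marks equal RPM. Green points, the 10 genes over 3 reads in the *gata2a*+ *runx1*- library alone, stand at the left edge of both panels, and *fli1a* lies below the line in both.

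The 4 VEGF receptor genes were called higher in the *gata2a*+ *runx1*- library than in each other library, against 15.7% of all genes. *kdrl*, a zebrafish VEGF receptor that is the usual mark of endothelium in this species (ENSDARG00000105215), had 693 reads in the *gata2a*+ *runx1*- library, or 85.6 RPM (79.5 to 92.2), and 0 reads in both other libraries. Counting error allows up to 0.473 RPM of *kdrl* in the *gata2a*+ *runx1*+ and 0.468 RPM in the *gata2a*- *runx1*+ library. *kdrl* was called higher in the *gata2a*+ *runx1*- library in both comparisons (Fisher's exact test, adjusted p = 5.6e-208 against *gata2a*+ *runx1*+ and 9.68e-210 against *gata2a*- *runx1*+ cells). *kdr* (ENSDARG00000017321), the ortholog of the main human VEGF receptor, had 25 reads in the *gata2a*+ *runx1*- library and 2 reads in each *runx1*+ library (Fisher's exact test, adjusted p = 9.79e-06 and 8.05e-06). *flt4* (ENSDARG00000104453), the receptor for VEGF-C on lymphatic and venous endothelium, had 33 reads in the *gata2a*+ *runx1*- library, 3 in the *gata2a*+ *runx1*+ library (Fisher's exact test, adjusted p = 4.54e-07), and 0 in the *gata2a*- *runx1*+ library (adjusted p = 3.88e-10). *flt1* (ENSDARG00000019371), which binds VEGF but signals weakly, had 12 reads in the *gata2a*+ *runx1*- library and 0 in the others (Fisher's exact test, adjusted p = 0.000641 and 0.000557), and its calls were lost with a floor of 10 reads. The *runx1*+ libraries could not be told apart in these genes, since none had more than 3 reads in either.

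The Tie receptors did not share this pattern. *tek* (ENSDARG00000028663), the angiopoietin receptor also called Tie2, was at 37.6 RPM (33.6 to 42.0) in *gata2a*+ *runx1*-, 32.6 RPM (28.9 to 36.8) in *gata2a*+ *runx1*+, and 21.8 RPM (18.8 to 25.3) in the *gata2a*- *runx1*+ library. Its intervals in the *gata2a*+ libraries overlap, and a difference between them was not detectable at this depth (1.15-fold, Fisher's exact test, adjusted p = 0.155). It was 1.72-fold higher in the *gata2a*+ *runx1*- than in the *gata2a*- *runx1*+ library (Fisher's exact test, adjusted p = 1.79e-08), under the fold limit of 2. *tie1* (ENSDARG00000004105), its partner receptor, had 2 reads in *gata2a*+ *runx1*-, 0 in *gata2a*+ *runx1*+, and 4 in the *gata2a*- *runx1*+ library, and none of its differences passed the test (Fisher's exact test, adjusted p = 0.207 to 0.756).

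Junction and adhesion genes divided between the *gata2a*+ populations. *cdh5* (ENSDARG00000075549), which encodes VE-cadherin of the endothelial adherens junction, had 119 reads in *gata2a*+ *runx1*-, or 14.7 RPM, 2 reads in *gata2a*+ *runx1*+, and 0 in the *gata2a*- *runx1*+ library (Fisher's exact test, adjusted p = 2.98e-32 and 6.76e-36). *esama* (ENSDARG00000077039), an adhesion molecule of endothelial tight junctions, had 45 reads in the *gata2a*+ *runx1*- library and 2 in each *runx1*+ library (Fisher's exact test, adjusted p = 4.18e-11 and 2.87e-11). *robo4* (ENSDARG00000009387), an endothelial guidance receptor that stabilizes vessels, was at 18.2 RPM in the *gata2a*+ *runx1*- library and 1.23 RPM in the *gata2a*+ *runx1*+ library, a 14.8-fold difference (Fisher's exact test, adjusted p = 1.21e-31), with 1 read in the *gata2a*- *runx1*+ library. These 3 genes were thus read mainly in the *gata2a*+ *runx1*- library.

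Between the *gata2a*+ libraries the opposite order held for *clec14a* (ENSDARG00000103533), a C-type lectin of the endothelial surface, and *pecam1a* (ENSDARG00000060263), the adhesion molecule CD31 of endothelium, platelets, and leukocytes. *clec14a* was at 19.3 RPM (16.5 to 22.5) in *gata2a*+ *runx1*-, 80.1 RPM (74.2 to 86.5) in *gata2a*+ *runx1*+, and 13.3 RPM (11.01 to 16.02) in the *gata2a*- *runx1*+ library. It was 4.16-fold lower in the *gata2a*+ *runx1*- than in the *gata2a*+ *runx1*+ library (Fisher's exact test, adjusted p = 7.39e-71), and 6.03-fold higher in the *gata2a*+ *runx1*+ than in the *gata2a*- *runx1*+ library (adjusted p = 1.46e-94). *pecam1a* was at 20.8 RPM in *gata2a*+ *runx1*-, 45.9 RPM in *gata2a*+ *runx1*+, and 3.78 RPM in the *gata2a*- *runx1*+ library. Each pair of libraries differed in *pecam1a*, which was 2.21-fold lower in the *gata2a*+ *runx1*- than in the *gata2a*+ *runx1*+ library (Fisher's exact test, adjusted p = 5.61e-18) and 5.49-fold higher in the *gata2a*+ *runx1*- than in the *gata2a*- *runx1*+ library (adjusted p = 1.02e-23). The call between the *gata2a*+ libraries was lost with a fold limit of 3.

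Among the claudin-5 genes, which seal tight junctions and which the gene table lists as CLDN5 without saying which is *cldn5a* and which *cldn5b*, the highest values were in the *gata2a*- *runx1*+ library. ENSDARG00000014059 had 8 reads in *gata2a*+ *runx1*-, 19 in *gata2a*+ *runx1*+, and 32 in the *gata2a*- *runx1*+ library, and was called lower in the *gata2a*+ *runx1*- than in the *gata2a*- *runx1*+ library (Fisher's exact test, adjusted p = 0.000463). ENSDARG00000043716 had 0 reads in both *gata2a*+ libraries and 10 in the *gata2a*- *runx1*+ library (Fisher's exact test, adjusted p = 0.00431 and 0.0054), and its calls were lost with a floor of 10 reads. *vwf* (ENSDARG00000077231), the von Willebrand factor of endothelium and thrombocytes that tethers thrombocytes to the vessel wall, had 14 reads in *gata2a*+ *runx1*-, 29 in *gata2a*+ *runx1*+, and 25 in the *gata2a*- *runx1*+ library. None of its differences passed the test (Fisher's exact test, adjusted p = 0.0583 to 0.682). The 6 thrombocyte markers summed to 395.8 RPM in *gata2a*+ *runx1*-, 185.4 RPM in *gata2a*+ *runx1*+, and 713.9 RPM in the *gata2a*- *runx1*+ library. The first of these sums was carried by *nfe2*, with 366.7 RPM in *gata2a*+ *runx1*-, 113.5 RPM in *gata2a*+ *runx1*+, and 53.6 RPM in the *gata2a*- *runx1*+ library. Of the other markers, *itga2b*, *mpl*, *gp1bb*, and *gp9* were called lower in the *gata2a*+ *runx1*- library than in each other library. Of all genes, 18.7% were called lower than in the *gata2a*+ *runx1*+ library and 18.5% lower than in the *gata2a*- *runx1*+ library. The share lower than in both was not counted. *itga2b* had 3, 307, and 3016 reads in the *gata2a*+ *runx1*-, *gata2a*+ *runx1*+, and *gata2a*- *runx1*+ libraries. *thbs1b* had 190, 4, and 804 reads in the same order. It was called higher in the *gata2a*+ *runx1*- than in the *gata2a*+ *runx1*+ library, and lower than in the *gata2a*- *runx1*+ library. The part of these markers in the levels of *vwf* and *pecam1a* was not tested.

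The transcription factors ran between *fli1a*, which of the 33 assigned genes had the lowest ratio of *gata2a*+ *runx1*- to *gata2a*+ *runx1*+, and *sox18*, without a read in *gata2a*+ *runx1*+. *fli1a* (ENSDARG00000054632), an ETS factor of endothelium and of early blood cells, was at 60.2 RPM (55.1 to 65.7) in *gata2a*+ *runx1*-, 1489 RPM (1463 to 1516) in *gata2a*+ *runx1*+, and 519.6 RPM (504.3 to 535.5) in the *gata2a*- *runx1*+ library. It was 24.8-fold lower in the *gata2a*+ *runx1*- than in the *gata2a*+ *runx1*+ library and 8.64-fold lower than in the *gata2a*- *runx1*+ library. All 3 pairs of libraries were called in *fli1a*. The *runx1*+ libraries differed 2.87-fold, and that call was lost with a fold limit of 3. The paralog of *fli1a*, *fli1b* (ENSDARG00000040080), listed as *fli1rs*, had another order. It was at 476.1 RPM (461.3 to 491.4) in *gata2a*+ *runx1*-, 330.3 RPM (318.0 to 343.0) in *gata2a*+ *runx1*+, and 98.7 RPM (92.1 to 105.7) in the *gata2a*- *runx1*+ library. The *gata2a*+ libraries differed 1.44-fold in *fli1b* (Fisher's exact test, adjusted p = 2.06e-47), under the fold limit, and *gata2a*+ *runx1*- cells were 4.82-fold above *gata2a*- *runx1*+ cells. *fli1b* thus followed the order of *gata2a* over the 3 libraries and *fli1a* did not. How reads that match both paralogs were counted is not given in the sources used here, and the division between close copies, here and for the *plvap*, *kdr*, and *klf2* genes, is uncertain to that extent.

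*erg* (ENSDARG00000077304), an ETS factor required in both endothelium and HSCs in mice, was at 37.6 RPM in *gata2a*+ *runx1*-, 53.9 RPM in *gata2a*+ *runx1*+, and 17.4 RPM in the *gata2a*- *runx1*+ library. Both *gata2a*+ populations were above *gata2a*- *runx1*+ cells in *erg*, *gata2a*+ *runx1*- cells by 2.16-fold and *gata2a*+ *runx1*+ cells by 3.09-fold (Fisher's exact test, adjusted p = 3.26e-14 and 3.58e-35), and the first of these calls was lost with a fold limit of 3. *etsrp* (ENSDARG00000053868), the ETS factor that starts vessel formation in the zebrafish embryo, had 49 reads in *gata2a*+ *runx1*-, 30 in *gata2a*+ *runx1*+, and 0 in the *gata2a*- *runx1*+ library. It was called higher in both *gata2a*+ libraries than in the *gata2a*- *runx1*+ library (Fisher's exact test, adjusted p = 6.82e-15 and 5.04e-09), while the *gata2a*+ libraries did not differ past the threshold (1.64-fold, adjusted p = 0.0604).

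The SoxF genes, which act with ETS factors in arterial, venous, and lymphatic fate, were unlike each other. *sox18* (ENSDARG00000058598) had 110 reads in the *gata2a*+ *runx1*- library and 0 in both *runx1*+ libraries (Fisher's exact test, adjusted p = 8.27e-33 and 3.48e-33). *sox7* (ENSDARG00000030125) was read in all 3 libraries, with 6.92 RPM in *gata2a*+ *runx1*-, 2.22 RPM in *gata2a*+ *runx1*+, and 3.05 RPM in the *gata2a*- *runx1*+ library. It was 3.12-fold above *gata2a*+ *runx1*+ cells (Fisher's exact test, adjusted p = 2.25e-05) and 2.27-fold above *gata2a*- *runx1*+ cells (adjusted p = 0.00119), and the second call was lost with a fold limit of 3. *sox17* (ENSDARG00000101717) had 0 reads in all 3 libraries, which allows up to 0.475 RPM in the *gata2a*+ *runx1*- library.

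All 4 scavenger receptor genes were called higher in the *gata2a*+ *runx1*- library than in each other library, against 15.7% of all genes. *stab1* (ENSDARG00000076484) encodes stabilin-1, an uptake receptor of sinusoidal endothelium that macrophages can also carry, and was at 18.5 RPM (15.8 to 21.7) in *gata2a*+ *runx1*-, 1.97 RPM (1.21 to 3.20) in *gata2a*+ *runx1*+, and 0 in the *gata2a*- *runx1*+ library. The *gata2a*+ libraries differed 9.41-fold in *stab1* (Fisher's exact test, adjusted p = 9.28e-28). *stab2* (ENSDARG00000045748), which clears hyaluronan from the blood, had 36 reads in the *gata2a*+ *runx1*- library, 11 in the *gata2a*+ *runx1*+ library (Fisher's exact test, adjusted p = 0.000588), and 3 in the *gata2a*- *runx1*+ library (adjusted p = 5.82e-08). *mrc1a* (ENSDARG00000102100, listed as MRC1), a mannose receptor that marks veins and lymphatics in zebrafish, was at 23.0 RPM in the *gata2a*+ *runx1*- library and 1.23 RPM in the *gata2a*+ *runx1*+ library, 18.7-fold apart (Fisher's exact test, adjusted p = 2.56e-42), with 0 reads in the *gata2a*- *runx1*+ library. *lyve1b* (ENSDARG00000062483), a hyaluronan receptor of lymphatic and venous endothelium, had 24 reads in the *gata2a*+ *runx1*- library and 0 in the others (Fisher's exact test, adjusted p = 2.26e-07 and 1.76e-07). The second mannose receptor gene, *mrc1b* (ENSDARG00000038822), is not of the set and was looked at after its values were seen. It was at 379.6 RPM in *gata2a*+ *runx1*-, 1731 RPM in *gata2a*+ *runx1*+, and 86.6 RPM in the *gata2a*- *runx1*+ library, an order unlike that of *mrc1a*.

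*plvapa* and *plvapb* encode the protein of the diaphragms that span the pores of fenestrated and sinusoidal endothelium, and both were called higher in the *gata2a*+ *runx1*- library than in each other library. *plvapa* (ENSDARG00000076972) had 370 reads in *gata2a*+ *runx1*-, or 45.7 RPM (41.3 to 50.6), 21 reads in *gata2a*+ *runx1*+, or 2.59 RPM (1.69 to 3.95), and 2 reads in the *gata2a*- *runx1*+ library. The *gata2a*+ libraries differed 17.7-fold (Fisher's exact test, adjusted p = 1.32e-82). *plvapb* (ENSDARG00000045003) had 82 reads in *gata2a*+ *runx1*-, 5 in *gata2a*+ *runx1*+, and 0 in the *gata2a*- *runx1*+ library, and its fold between the *gata2a*+ libraries was 16.5 (Fisher's exact test, adjusted p = 1.9e-18). The folds of the 2 paralogs were close in size, and their difference was not tested.

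The water channel aquaporin-1, found in endothelium and, in human, in red cells, went the other way under both identifiers listed as AQP1, of which the gene table does not say which is *aqp1a.1*. ENSDARG00000023713 had 0 reads in the *gata2a*+ *runx1*- library, 16 in the *gata2a*+ *runx1*+ library (Fisher's exact test, adjusted p = 9.1e-05), and 193 in the *gata2a*- *runx1*+ library (adjusted p = 4.65e-57). ENSDARG00000091027 had 0 reads in the *gata2a*+ *runx1*- library, 98 in the *gata2a*+ *runx1*+ library (Fisher's exact test, adjusted p = 7.48e-29), and 164 in the *gata2a*- *runx1*+ library (adjusted p = 1.85e-48). Neither gene had a read in the library that held nearly all reads of the VEGF receptors. The summed level of 7 erythroid markers had the same order over the libraries, with 2.59 RPM in *gata2a*+ *runx1*-, 78.7 RPM in *gata2a*+ *runx1*+, and 725.8 RPM in the *gata2a*- *runx1*+ library, and its part in the aquaporin levels was not tested.

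Of the arterial and venous pair, *ephb4a* (ENSDARG00000100725), the venous receptor for ephrin-B2, was at 14.5 RPM (12.1 to 17.3) in *gata2a*+ *runx1*-, 21.9 RPM (18.9 to 25.4) in *gata2a*+ *runx1*+, and 4.39 RPM (3.17 to 6.07) in the *gata2a*- *runx1*+ library. Both *gata2a*+ populations were above *gata2a*- *runx1*+ cells in *ephb4a*, *gata2a*+ *runx1*- cells by 3.29-fold and *gata2a*+ *runx1*+ cells by 4.99-fold (Fisher's exact test, adjusted p = 8.16e-11 and 5.59e-23). Its arterial ligand was listed as EFNB2 under identifiers that were not assigned to *efnb2a*. ENSDARG00000020164 had 68 reads in the *gata2a*+ *runx1*- library, 20 in the *gata2a*+ *runx1*+ library (Fisher's exact test, adjusted p = 6.45e-07), and 32 in the *gata2a*- *runx1*+ library (adjusted p = 0.000681), and ENSDARG00000074050 had 9, 0, and 6 reads in the *gata2a*+ *runx1*-, *gata2a*+ *runx1*+, and *gata2a*- *runx1*+ libraries.

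Of 5 signalling and matrix genes, 2 were called higher in the *gata2a*+ *runx1*- library than in each other library, against 15.7% of all genes. *ramp2* (ENSDARG00000037895), which turns the calcitonin receptor-like receptor into a receptor for adrenomedullin, was at 31.5 RPM (27.9 to 35.6) in *gata2a*+ *runx1*-, 3.94 RPM (2.79 to 5.56) in *gata2a*+ *runx1*+, and 2.19 RPM (1.39 to 3.47) in the *gata2a*- *runx1*+ library. The folds were 8.0 and 14.4 (Fisher's exact test, adjusted p = 1.89e-43 and 1.39e-54). *egfl7* (ENSDARG00000100657), a matrix protein secreted by endothelium, had 83 reads in the *gata2a*+ *runx1*- library and 0 in both *runx1*+ libraries (Fisher's exact test, adjusted p = 9.12e-25 and 4.52e-25). *she* (ENSDARG00000087956), an adaptor protein of endothelial cells, had 4 reads in the *gata2a*+ *runx1*- library and 0 in the others, which did not pass the test (Fisher's exact test, adjusted p = 0.107 and 0.101). *fgd5b* (ENSDARG00000089622), an exchange factor for Cdc42 whose mouse ortholog marks HSCs and endothelium, had 0, 4, and 0 reads in the *gata2a*+ *runx1*-, *gata2a*+ *runx1*+, and *gata2a*- *runx1*+ libraries, and *fgd5a* (ENSDARG00000088801) had 2 reads in the *gata2a*+ *runx1*+ library alone.

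The division of a gene's reads between the *gata2a*+ libraries was then compared over the 24 assigned genes with at least 20 reads in the *gata2a*+ *runx1*- library. The limit was set on that library alone, which favours low *gata2a*+ *runx1*+ shares. It left out *vwf* at 67.4%, the claudin-5 gene ENSDARG00000014059 at 70.4%, and *fgd5a* and *fgd5b* at 100%. At the other end it left out *flt1*, *she*, and *tie1* at 0%. For *kdrl*, *egfl7*, *sox18*, and *lyve1b* the *gata2a*+ *runx1*+ share was 0%, with an upper limit of 0.551% for *kdrl*, 3.37% for *sox18*, 4.42% for *egfl7*, and 13.8% for *lyve1b*. It was 1.65% (0.454 to 5.83) for *cdh5*, 5.10% (2.79 to 9.14) for *mrc1a*, 5.37% (3.54 to 8.07) for *plvapa*, 6.37% (3.50 to 11.3) for *robo4*, 9.64% (6.02 to 15.1) for *stab1*, and 11.1% (8.01 to 15.3) for *ramp2*. The intervals of these last 5 genes all lie above the upper limit of *kdrl*, the gene with the narrowest interval at 0%. So do those of *esama* at 4.26% (1.17 to 14.2) and *plvapb* at 5.75% (2.48 to 12.8). *kdr* at 7.41% (2.06 to 23.4) and *flt4* at 8.33% (2.87 to 21.8) also lie above it. Of these, *esama*, *kdr*, and *flt4* were detected in the *gata2a*+ *runx1*- library alone, as was *kdrl*. The share of each of these genes in the *gata2a*+ *runx1*+ library was thus above that of *kdrl* beyond the counting error of reads. Against *cdh5*, the intervals of *mrc1a*, *plvapa*, *robo4*, *esama*, *plvapb*, *kdr*, and *flt4* overlap, and those of *stab1* and *ramp2* do not. Further up were *stab2* at 23.4% (13.6 to 37.2) and *sox7* at 24.3%, and then *etsrp* at 38.0%, *fli1b* at 41.0%, and *tek* at 46.6%. Above an equal division stood *erg* at 59.0%, *ephb4a* at 60.3%, *pecam1a* at 68.9%, *clec14a* at 80.7%, and *fli1a* at 96.1%.

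**Figure D3:**
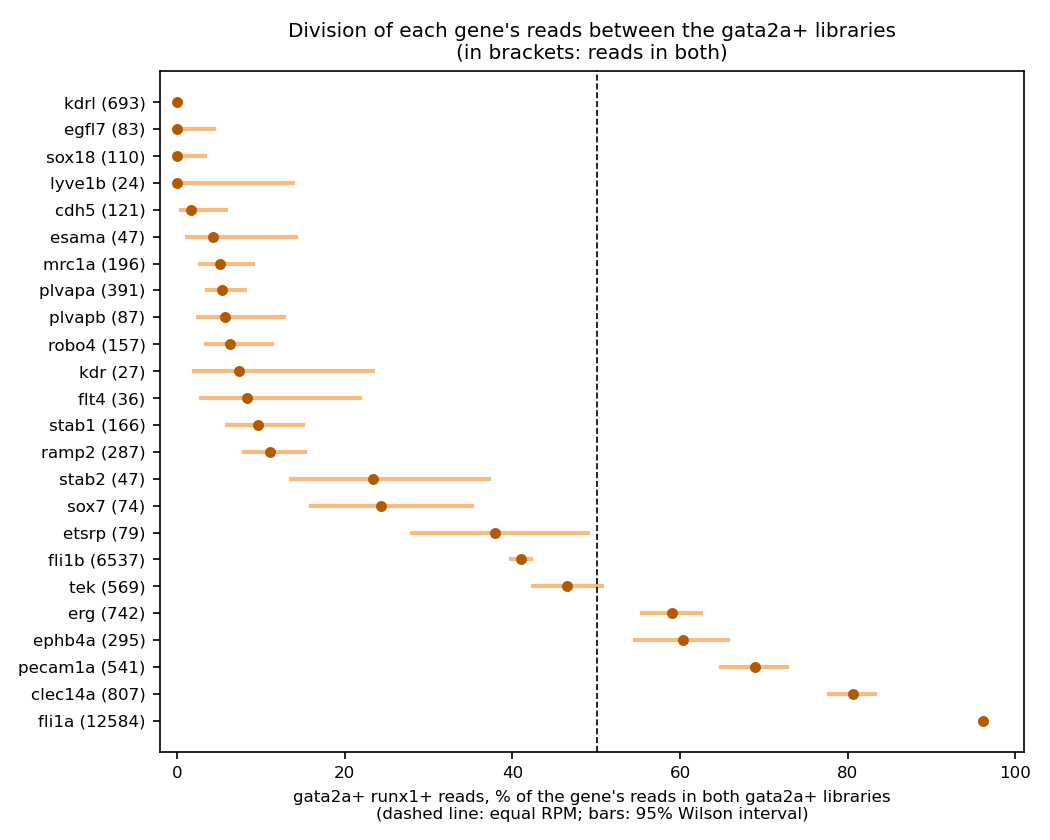
Reads in the *gata2a*+ *runx1*+ library as a percent of the reads of the gene in both *gata2a*+ libraries, for the 24 genes with at least 20 reads in the *gata2a*+ *runx1*- library, ordered by that share; bars are 95% Wilson intervals, the numbers in brackets are the reads in both libraries, and the dashed line marks equal RPM. The shares run between 0% for *kdrl* and 96.1% for *fli1a*, and the interval of *tek* alone crosses the dashed line.

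Other vessel genes were read from lists of 49 symbols, of which 42 genes could be used. Of 11 ligand genes of the VEGF, angiopoietin, and apelin families, 4 had more than 3 reads in a library. The rest could not be called. None of the 4 was called higher in the *gata2a*+ *runx1*- library than in the *gata2a*+ *runx1*+ or the *gata2a*- *runx1*+ library. The shares of all genes over that floor were 21.7% and 26.7%. In the comparison with *gata2a*+ *runx1*+ cells all 4 were called lower, against 18.7% of all genes. The same 4 were lower in the comparison with *gata2a*- *runx1*+ cells, against 18.5%. These were *angpt1*, *apln*, *vegfc*, and 1 of the 2 genes listed as VEGFA. *vegfc*, the ligand of *flt4*, had 0 reads in *gata2a*+ *runx1*-, 19 in *gata2a*+ *runx1*+, and 469 in the *gata2a*- *runx1*+ library. *angpt1*, the ligand of *tek*, was at 12.6 RPM in *gata2a*+ *runx1*-, 98.1 RPM in *gata2a*+ *runx1*+, and 105.0 RPM in the *gata2a*- *runx1*+ library (Fisher's exact test, adjusted p = 4.09e-132 and 4.73e-147 for *gata2a*+ *runx1*- cells against the others). *apln*, the apelin gene, had 3 reads in *gata2a*+ *runx1*-, 1095 in *gata2a*+ *runx1*+, and 2332 in the *gata2a*- *runx1*+ library. The VEGFA gene ENSDARG00000103542 was at 5.31 RPM in *gata2a*+ *runx1*-, 12.9 RPM in *gata2a*+ *runx1*+, and 27.5 RPM in the *gata2a*- *runx1*+ library. The *runx1*+ libraries thus held most reads of these 4 ligands, and the *gata2a*+ *runx1*- library most reads of the VEGF receptors. The apelin receptor genes had no read in the *gata2a*+ *runx1*- library, and *aplnra* had 8 reads and *aplnrb* 1 read in the *gata2a*+ *runx1*+ library.

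**Figure D4:**
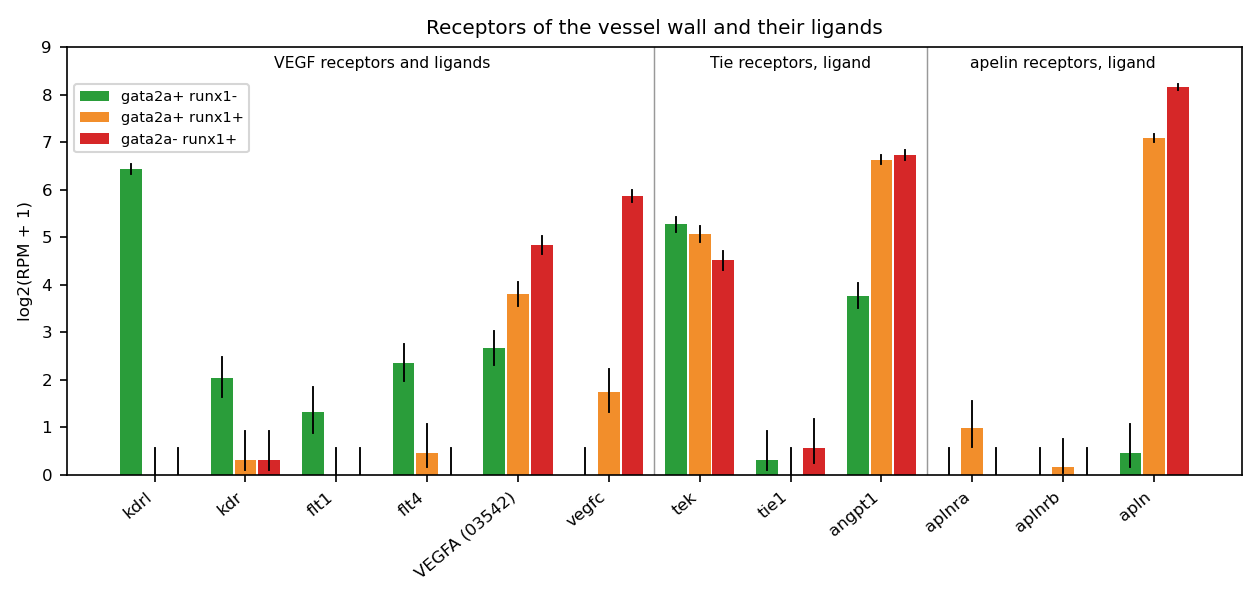
Level of receptor and ligand genes of the VEGF, Tie, and apelin families, as log2(RPM + 1), in *gata2a*+ *runx1*- (green), *gata2a*+ *runx1*+ (orange), and *gata2a*- *runx1*+ cells (red); each bar is 1 library and the lines are 95% Wilson intervals, and heights are comparable between libraries but not between genes. Among the VEGF receptors the green bar is the tallest, and for *vegfc*, VEGFA, *angpt1*, and *apln* the red bar is.

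Of 21 other receptor and surface genes, 7 were called higher in the *gata2a*+ *runx1*- than in the *gata2a*+ *runx1*+ library and 2 lower, and 10 were called higher than in the *gata2a*- *runx1*+ library and 2 lower. All genes had 21.7% higher and 18.7% lower in the first comparison, and 26.7% and 18.5% in the second. These shares count only genes with more than 3 reads in either library. Of the 21 listed, 13 passed in *gata2a*+ *runx1*-, 12 in *gata2a*+ *runx1*+, and 6 in the *gata2a*- *runx1*+ library. *gpr182*, a chemokine scavenger of sinusoidal and lymphatic endothelium, had 411 reads in *gata2a*+ *runx1*-, 16 in *gata2a*+ *runx1*+, and 0 in the *gata2a*- *runx1*+ library, and was 25.8-fold higher in the *gata2a*+ *runx1*- than in the *gata2a*+ *runx1*+ library (Fisher's exact test, adjusted p = 2.89e-99). *mcamb*, a junction adhesion molecule, and *mmrn2a* and *mmrn2b*, whose human counterpart is a matrix ligand of CLEC14A, had 43, 14, and 35 reads in the *gata2a*+ *runx1*- library and 0 in both *runx1*+ libraries. *nrp1b* had 15 reads in the *gata2a*+ *runx1*- library alone, while its paralog *nrp1a*, also a VEGF co-receptor, had 25 reads in the *gata2a*+ *runx1*+ library alone. *cav1*, which forms caveolae, was called higher in the *gata2a*+ *runx1*- library than in both others, with 37, 13, and 10 reads in the *gata2a*+ *runx1*-, *gata2a*+ *runx1*+, and *gata2a*- *runx1*+ libraries.

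The other receptor genes were not called higher in the *gata2a*+ *runx1*- library than in both others. *acvrl1*, a BMP receptor of endothelium, had 166 reads in *gata2a*+ *runx1*-, 189 in *gata2a*+ *runx1*+, and 0 in the *gata2a*- *runx1*+ library, and a difference between the *gata2a*+ libraries was not detectable (Fisher's exact test, adjusted p = 0.34). *adgrl4*, an adhesion receptor of endothelium, had 38, 23, and 0 reads in the *gata2a*+ *runx1*-, *gata2a*+ *runx1*+, and *gata2a*- *runx1*+ libraries. *calcrla*, the receptor that works with *ramp2*, had 62 reads in *gata2a*+ *runx1*-, 118 in *gata2a*+ *runx1*+, and 22 in the *gata2a*- *runx1*+ library. The Notch ligand gene *dll4* had 56, 29, and 12 reads in the *gata2a*+ *runx1*-, *gata2a*+ *runx1*+, and *gata2a*- *runx1*+ libraries, and its *gata2a*+ libraries were 1.94-fold apart, under the limit, but were called with TMM or DESeq2 scaling. *ptprb*, a phosphatase of Tie2 and VE-cadherin, had 144 reads in *gata2a*+ *runx1*-, 23 in *gata2a*+ *runx1*+, and 151 in the *gata2a*- *runx1*+ library. The 2 genes listed as NRP2 were called lower in both *gata2a*+ libraries than in the *gata2a*- *runx1*+ library, with 36, 21, and 366 reads and with 38, 26, and 114 reads in the *gata2a*+ *runx1*-, *gata2a*+ *runx1*+, and *gata2a*- *runx1*+ libraries. *esm1*, which encodes a proteoglycan secreted by endothelium, had 2, 6, and 0 reads in the *gata2a*+ *runx1*-, *gata2a*+ *runx1*+, and *gata2a*- *runx1*+ libraries, and its call between the *runx1*+ libraries was lost with each other scaling.

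Of 10 transcription and signalling genes, 6 were called higher in the *gata2a*+ *runx1*- library than in each other library, against 15.7% of all genes. More than 3 reads in the *gata2a*+ *runx1*- library were counted for 9 of the 10, and *klf4* passed in no library. *nr2f2*, which sets venous identity, *hey2*, an arterial target of Notch, and *rasip1*, needed to open the vessel lumen, had 34, 13, and 34 reads in the *gata2a*+ *runx1*- library and 0 in the others. *klf2a* and *klf2b*, which respond to blood flow in endothelium and are also known from lymphocytes, were both called. *klf2a* was at 23.7 RPM in *gata2a*+ *runx1*-, 4.43 RPM in *gata2a*+ *runx1*+, and 1.58 RPM in the *gata2a*- *runx1*+ library, and *klf2b* at 285.2 RPM in *gata2a*+ *runx1*-, 63.9 RPM in *gata2a*+ *runx1*+, and 52.2 RPM in the *gata2a*- *runx1*+ library. *hspa12b*, a heat shock protein gene of endothelium, had 102, 21, and 0 reads in the *gata2a*+ *runx1*-, *gata2a*+ *runx1*+, and *gata2a*- *runx1*+ libraries. The 1 gene called lower was *hhex*, a factor of endothelium and early blood cells. It was lower in the *gata2a*+ *runx1*- than in the *gata2a*+ *runx1*+ library, with 45 and 154 reads (Fisher's exact test, adjusted p = 2.49e-14), and had 87 reads in the *gata2a*- *runx1*+ library. *dusp5*, a phosphatase induced by VEGF signalling, had 36, 30, and 13 reads in the *gata2a*+ *runx1*-, *gata2a*+ *runx1*+, and *gata2a*- *runx1*+ libraries and was called higher in both *gata2a*+ libraries than in the *gata2a*- *runx1*+ library.

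Markers of some other cells were also read most in the *gata2a*+ *runx1*- library, and the part of any marker in the results was not tested. The 9 stromal and pericyte genes summed to 485.6 RPM in *gata2a*+ *runx1*-, 29.8 RPM in *gata2a*+ *runx1*+, and 5.97 RPM in the *gata2a*- *runx1*+ library. Of the 9, 7 were called highest in the *gata2a*+ *runx1*- library, against 15.7% of all genes, and *lum* had 0 reads in all 3. The 7 B cell genes were all called highest in the *gata2a*+ *runx1*- library, against the same 15.7%. They summed to 2496 RPM in *gata2a*+ *runx1*-, 73.6 RPM in *gata2a*+ *runx1*+, and 13.4 RPM in the *gata2a*- *runx1*+ library. Beside *stab1*, *mrc1a*, and *mrc1b*, which macrophages can also carry, the 6 macrophage genes summed to 58.9 RPM in *gata2a*+ *runx1*-, 504.5 RPM in *gata2a*+ *runx1*+, and 52.0 RPM in the *gata2a*- *runx1*+ library. That sum was carried by *csf1rb*, with 297, 3946, and 394 reads in the *gata2a*+ *runx1*-, *gata2a*+ *runx1*+, and *gata2a*- *runx1*+ libraries. *csf1ra* had 25, 8, and 0 reads and *marco* 78, 138, and 29 reads in the same order. *c1qa*, *c1qb*, and *c1qc* had 33, 34, and 10 reads in the *gata2a*+ *runx1*- library and at most 3 reads in each *runx1*+ library. Of the 6 genes, 4 were called highest in the *gata2a*+ *runx1*- library, against 15.7% of all genes. Only *csf1rb* was called highest in the *gata2a*+ *runx1*+ library, against 7.44%. The 8 leukocyte genes were over 3 reads in all 3 libraries and summed to 5427 RPM in *gata2a*+ *runx1*-, 3503 RPM in *gata2a*+ *runx1*+, and 1593 RPM in the *gata2a*- *runx1*+ library. These sums were carried by *lcp1*, with 3648, 2463, and 999.3 RPM in the same order. Between the *gata2a*+ libraries, 4 were called higher in *gata2a*+ *runx1*-, against 21.7% of all genes, and 0 lower, against 18.7%. Between the *runx1*+ libraries, 6 were called higher in *gata2a*+ *runx1*+, against 20.8%, and 0 lower, against 11.8%. In the comparison of *gata2a*+ *runx1*- with *gata2a*- *runx1*+ cells, 7 were called higher, against 26.7% of all genes. The other, *plek*, was called lower, against 18.5%. Kidney tubule and podocyte genes had sums between 1.48 and 12.2 RPM in the 3 libraries. Of 5 tubule genes, *cdh17* and *cubn* were called highest in the *gata2a*+ *runx1*- library, against 15.7% of all genes. They had 23, 0, and 0 reads and 27, 4, and 10 reads in the *gata2a*+ *runx1*-, *gata2a*+ *runx1*+, and *gata2a*- *runx1*+ libraries. *lrp2a*, with 1, 9, and 1 reads in the same order, was called highest in the *gata2a*+ *runx1*+ library. The podocyte gene *podxl* had 86, 2, and 64 reads in that order.

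**Figure D5:**
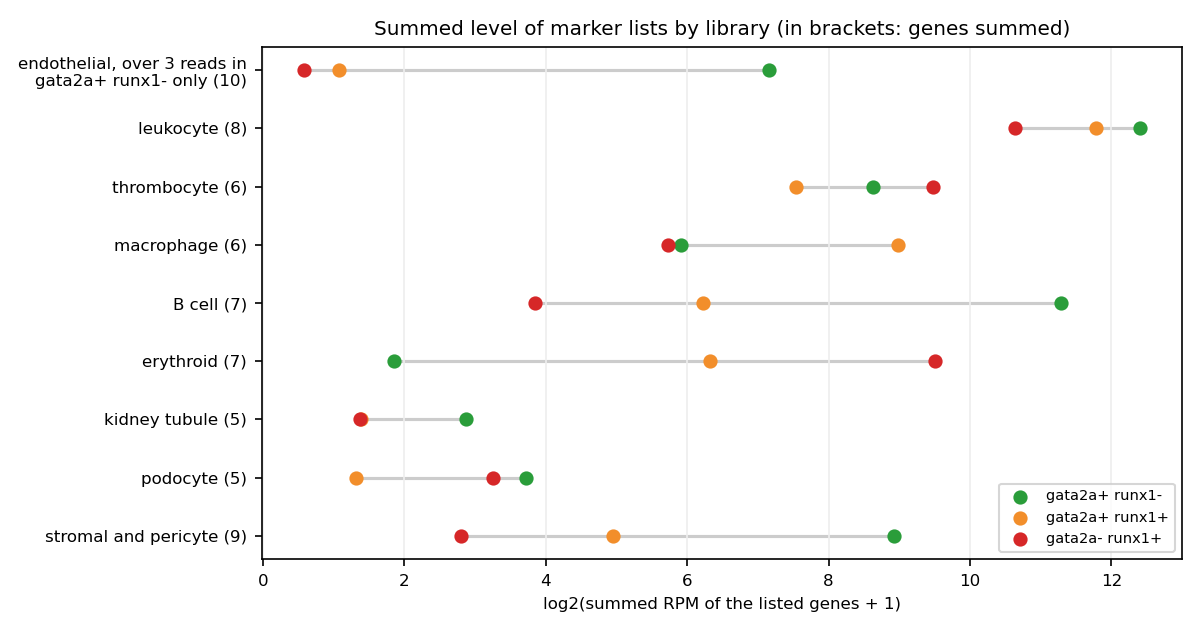
Summed RPM of marker genes of other cell types, and of the 10 endothelial genes over 3 reads in the *gata2a*+ *runx1*- library alone, in the 3 libraries, as log2 of the sum + 1; each point is 1 library and the number of genes summed is in brackets. The 10 endothelial genes were picked for being read in the *gata2a*+ *runx1*- library alone, so that the place of their rightmost point was fixed. The B cell and stromal sums also have their rightmost point in that library, and the erythroid sum in the *gata2a*- *runx1*+ library.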

How the data were processed

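Cells of 3 populations were sorted from the adult zebrafish kidney, and their cDNA was amplified by Quartz-Seq without molecular identifiers, 1 library per population. Per the methods and labels, the authors mapped reads to GRCz11 with HISAT2 2.1.0, and deposited RPM per gene, made with Subread 1.6.4, rounded to 2 decimals. The annotation release, use of strand, and treatment of reads with several matches are not given in the sources used here. The counts behind the deposited RPM were recovered as whole reads for 100% of values. Recovery and calls were also run on simulated counts. There, calls were looked at only for well-read genes and amplification was not simulated, so that calls on few reads were not checked.

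Genes were matched by symbol (27), RefSeq synonym (2), or human-style symbol (4). For each pair of libraries, the reads of each gene and all other reads entered Fisher's exact test (two-sided, scipy 1.17.1), and p-values were adjusted by the Benjamini-Hochberg method across every gene with a read in the pair. Folds took 3 reads or fewer as 3, and a call needed a fold over 2 and an adjusted p under 0.05. Log2 ratios used a pseudocount of 1 RPM. Every gene of the set is named, and other vessel genes where called in any pair or, for the apelin receptor *aplnrb*, beside their paralog. *mrc1b* and single marker genes were named after their values were seen. The set and lists were chosen with earlier results of these data known. Alternatives were TMM (edgeR 4.0.16) and DESeq2 1.42.0 size factors in R 4.3.3, removal of the 20 most read genes per library, other floors, fold limits, and pseudocounts, and stricter symbol matching.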

Additional observations from a re-analysis of the deposited data

How the results depend on the processing

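With 1 library per population, no replicate could be left out. No paired analysis was possible because each population has 1 library. Of the assigned genes, 80 log2 ratios had more than 3 reads in either library of the pair. None of these changed sign with TMM, with DESeq2, or without the 20 most read genes. The floor and fold limits do not enter a log2 ratio. TMM and DESeq2 scaling changed none of the calls of the 33 assigned genes. Among the other vessel genes both scalings changed the call of *dll4* between the *gata2a*+ libraries and of *esm1* between the *runx1*+ libraries. Genes called over both other libraries in *gata2a*+ *runx1*+ cells numbered 1 with a fold limit of 3, against 3. For *gata2a*- *runx1*+ cells the number was 0 without human-style symbols or with a floor of 10 reads, and 2 with the identifiers of *efnb2a* and *aqp1a.1* included, a choice made after seeing the data, against 1. Genes called lower in *gata2a*+ *runx1*- than in *gata2a*+ *runx1*+ cells were 5 with these identifiers, and 5 by the fold limit alone, against 3. Compared with *gata2a*- *runx1*+ cells they were 1 without human-style symbols and 5 with these identifiers, against 3. Between *gata2a*+ *runx1*+ and *gata2a*- *runx1*+ cells they were 0 without human-style symbols or with a floor of 10 reads and 2 with these identifiers, against 1. The summed level in *gata2a*+ *runx1*- cells, 975.1 RPM, was 1004 with DESeq2 scaling, 1356 without the 20 most read genes, 945.6 without human-style symbols, and 914.9 without *fli1a*, the most read gene of the set over all libraries. In *gata2a*+ *runx1*+ cells, at 2081 RPM, it was 2014 with TMM, 1997 with DESeq2, 2959 without the 20 most read genes, and 591.4 without *fli1a*. In *gata2a*- *runx1*+ cells, at 694.1 RPM, it was 1005 without the 20 most read genes, 742.3 with the added identifiers, and 174.5 without *fli1a*. The median log2 ratio of *gata2a*+ *runx1*- over *gata2a*+ *runx1*+ cells was 2.57 with a pseudocount of 0.1 RPM, against 1.30 with 1 RPM. At this depth a gene with 0 reads can lie at up to 0.475 RPM, and a difference between genes of few reads, such as *tie1*, *she*, *fgd5a*, and *fgd5b*, was not detectable.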
